A study of Homo sapiens with 12 samples.

Results

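ALPP, which encodes placental alkaline phosphatase, was described in all 12 RNA-seq libraries of a study of endometrial cancer cells. It was taken by its symbol, as 1 of 45320 genes in the count files, because alkaline phosphatase is a standard estrogen readout in this cell line. The cells were Ishikawa, an established human endometrial cancer line, kept in phenol red-free medium with charcoal-stripped serum, which removes steroid hormones. One arm expressed a control short hairpin RNA (shNC) and the other one that targets ARID1A (shARID1A), the DNA-binding subunit of the BAF chromatin-remodelling complex. Each arm received vehicle (DMSO), the estrogen 17-beta-estradiol (E2) at 10 nM, or the same E2 dose together with fulvestrant at 100 nM, for 8 h. Fulvestrant blocks the estrogen receptor and causes its loss. There were 6 groups of 2 libraries. The labels name no separate cultures behind the 2 libraries of a group and give no number of hairpins or clones per arm, so p-values measure the spread between these libraries, which may be technical.

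Alkaline phosphatases are zinc- and magnesium-dependent enzymes held on the outer cell surface by a glycosylphosphatidylinositol (GPI) lipid anchor, where they remove phosphate groups from extracellular substrates. ALPP is the form of the placental syncytiotrophoblast and also appears in tumours of the uterus, ovary and germ cells. Its close relatives ALPG, the germ-cell form, and ALPI, the intestinal form that acts on bacterial lipopolysaccharide, lie in the same gene cluster, whereas ALPL, the tissue-nonspecific form needed for bone mineralization, lies on another chromosome. Estrogen receptors act at response elements built from GGTCA half-sites, and alkaline phosphatase activity has long been used to read estrogen action in Ishikawa cells.

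In hg19 the files place ALPP on chromosome 2 from 233243434 to 233247319 on the plus strand and ALPI 73.5 kb downstream, from 233320835 to 233323994. ALPL lies on chromosome 1 from 21835890 to 21904892. These 3 genes are the members of the family among the counted genes. ALPG, looked for by symbol, was not among them. The promoters of ALPP and ALPI are shown because both genes differed between the arms in the same direction and because E2 was 1 of the treatments. Both are the 250 bases before the RefSeq start in GRCh38.p14, plus strand, at chr2:232378501-232378750 for ALPP and chr2:232455903-232456152 for ALPI, with each GGTCA in capitals.
ALPP: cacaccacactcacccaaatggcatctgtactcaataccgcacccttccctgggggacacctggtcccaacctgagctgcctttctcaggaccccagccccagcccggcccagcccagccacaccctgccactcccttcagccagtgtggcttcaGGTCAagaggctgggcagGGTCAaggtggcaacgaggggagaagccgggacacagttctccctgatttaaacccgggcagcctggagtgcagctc
ALPI: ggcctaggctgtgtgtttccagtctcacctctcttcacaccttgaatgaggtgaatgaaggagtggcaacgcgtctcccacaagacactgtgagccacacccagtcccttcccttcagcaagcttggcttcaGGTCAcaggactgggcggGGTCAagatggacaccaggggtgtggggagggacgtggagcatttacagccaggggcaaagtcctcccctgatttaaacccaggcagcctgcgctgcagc
Each promoter held GGTCA 2 times when both strands were searched. In ALPP the matches covered bases 95 to 91 and 77 to 73 upstream of the start, and in ALPI bases 118 to 114 and 100 to 96. At least 1 match was present in 32.6% of 35116 RefSeq promoters of this length, and 2 or more in 7.03%. The palindrome GGTCANNNTGACC was in neither window and in 0.0399% of all promoters. TTTAAA, present in 11.3% of promoters, stood 30 to 25 bases upstream in ALPP. The ALPP window was 84.4% identical to that of ALPG and 59.8% identical to that of ALPI. The ALPG window held the same 2 GGTCA matches at the same distances from its start. ALPL also differed between the arms in that direction, and its promoter window had no match to GGTCA or TTTAAA. A match describes letters only and is no evidence of binding.

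The counts of ALPP come from part of the gene. The 1902 exon bases counted as ALPP, in 6 blocks, were exactly those of 2 short transcript models in GENCODE 29. They held 1814 of the 2971 bases (61.1%) of the full 11-exon transcript, and exons 6 to 9 had no counted base. An antisense gene, ENSG00000224516.1, crosses the locus on the minus strand, from 233244345 to 233246384, and 328 of the counted ALPP bases (17.2%) lay under its exons. The file headers record no strand setting, so reads of ALPP and of this gene cannot be told apart by strand. Sequence likeness also limits the gene's identity: of 1704 windows of 100 bases along the counted ALPP transcripts, 114 (6.69%) were identical to a stretch of ALPG, against 0 for ALPI and 0 for ALPL. With up to 3 mismatches the share was 32.4% for ALPG and 1.53% for ALPI. No read length is stated in the sources used here. In windows of 50 bases, 362 of 1804 (20.1%) were identical to ALPG and 1 to ALPI, and with up to 3 mismatches the shares were 44.3% and 10.6%. ALPG was not a counted gene, and how reads shared with it or with ALPI were assigned is not given in the sources used here. ALPI had 30170 to 36386 counts in the shNC libraries and 71246 to 97563 in the shARID1A libraries. ALPP had 1695 to 2722 and 3245 to 4162. How many ALPP counts came from ALPG or ALPI was not tested, and ALPP values are uncertain to that extent.

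**Figure D1:**
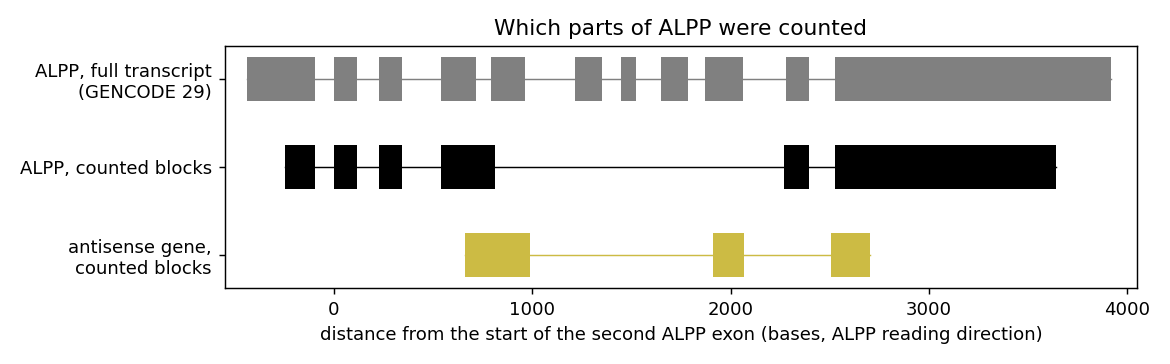
Map of the ALPP locus in bases from the start of the second ALPP exon, read in the direction of ALPP. Boxes are exons of the full GENCODE 29 transcript (grey), the 6 blocks counted as ALPP (black) and the counted blocks of the antisense gene (yellow). Exons 6 to 9 of the full transcript carry no black block, and the antisense boxes overlap 328 counted bases.

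Library totals ran from 28810351 to 38657162 counts, at which 3 counts correspond to 0.0776 to 0.104 CPM, the count scaled to a fixed library total. The target of the knockdown, ARID1A, ranged from 109.9 to 123.3 CPM in shNC and from 53.8 to 61.7 CPM in shARID1A, without overlap. ESR1, the estrogen receptor alpha gene, had 2 to 34 counts and at most 1.08 CPM. Of 10 epithelial markers in the files, 6 reached a mean of 1 CPM: KRT8, KRT18, MUC1, ELF3, PAX8 and EPCAM. CDH1, the epithelial cadherin, stayed below 1 CPM on average, and EHF was at 0 in every library.

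ALPP was well above these limits in every library, with 1695 to 4162 counts. By count it ranked between 1730 and 3713 among the genes of a library. CPM were scaled by the TMM factors of edgeR, which adjust for differences in composition between libraries.

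In shNC cells ALPP measured 68.3 and 57.1 CPM with DMSO, 81.3 and 60.6 CPM with E2, and 85.3 and 59.1 CPM with E2 plus fulvestrant. In shARID1A cells it measured 117.9 and 109.4 CPM with DMSO, 104.0 and 112.5 CPM with E2, and 129.0 and 117.0 CPM with E2 plus fulvestrant. Every shARID1A library was above every shNC library, whereas within each arm the DMSO libraries overlapped both other groups. The arm means were 68.6 ± 12.05 CPM (SD, n = 6) in shNC and 115.0 ± 8.57 CPM (SD, n = 6) in shARID1A. The order of the group means ran from shARID1A with E2 plus fulvestrant (123.0 ± 8.48 CPM, SD, n = 2) through shARID1A with DMSO (113.7 ± 6.03) and shARID1A with E2 (108.3 ± 5.99) to shNC with E2 plus fulvestrant (72.2 ± 18.5), shNC with E2 (71.0 ± 14.7) and shNC with DMSO (62.7 ± 7.92). Between neighbours in that order the libraries failed to overlap only at the step between the arms.

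**Figure D2:**
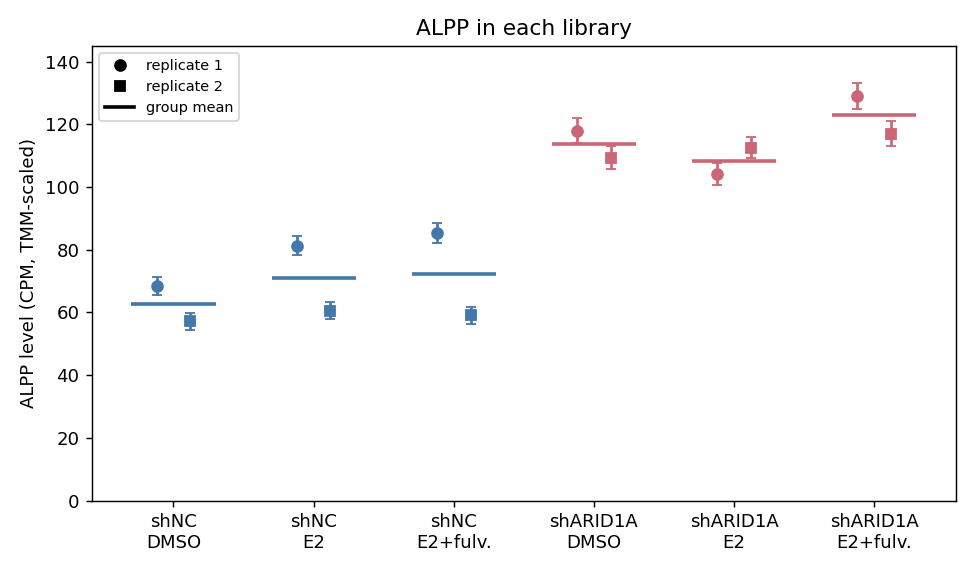
ALPP level in TMM-scaled CPM (vertical axis, from 0) for the 12 libraries by group. Circles and squares are replicates 1 and 2, bars on the points are exact 95% Poisson intervals of the count, and horizontal lines are group means. The shNC libraries lie between 57.1 and 85.3 CPM and the shARID1A libraries between 104.0 and 129.0 CPM.

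ALPP rose in shARID1A cells under each of the 3 treatments. In DMSO the log2 fold change was 0.85 (SE 0.12), or 1.81-fold with a 95% interval of 1.54 to 2.13 (edgeR quasi-likelihood test, Benjamini-Hochberg adjusted p = 1.33e-06 over 17020 genes). In the presence of E2 it was 0.62 (SE 0.11, edgeR adjusted p = 8.77e-05). Under both agents it was 0.77 (SE 0.11, edgeR adjusted p = 4.54e-06). Averaged over the treatments it was 0.75 (SE 0.07), or 1.68-fold with an interval of 1.53 to 1.84 (edgeR adjusted p = 5.41e-11). An exact permutation of the arm labels within treatments gave a two-sided p of 0.00926, the smallest that the arrangements allow.

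Change in this contrast was common. The same test called 19.2% of all genes in DMSO, 27.2% with E2, 24.2% with E2 plus fulvestrant and 43.1% on average, higher or lower. On average 20.3% of genes were called higher and 22.8% lower. By size, the mean log2 fold change of ALPP was above that of 96.8% of genes. In a bulk sample a change in ALPP RNA per cell and a change in the share of cells that express it cannot be told apart.

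Which shNC library is used moves the size of the difference but not its call. With E2 the log2 fold change was 0.41 without replicate 2 of the shNC E2 group and 0.84 without replicate 1. With E2 plus fulvestrant it ran from 0.53 to 1.08 in the same way, without replicate 2 and without replicate 1 of that shNC group.

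The 2 libraries of each shNC group differed more in ALPP than counting error allows. Replicate 1 was 1.20-fold above replicate 2 with DMSO, 1.34-fold with E2 and 1.44-fold with E2 plus fulvestrant. In shARID1A the corresponding ratios were 1.08, 0.925 and 1.10. In all 6 groups the exact 95% Poisson intervals of the 2 libraries did not overlap: with E2 plus fulvestrant in shNC they were 82.1 to 88.5 and 56.4 to 61.8 CPM. These intervals cover counting error only, since reads without molecular identifiers are not independent molecules.

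The shNC spread of ALPP was large for its level. Among 2723 genes with a mean of 50 to 150 CPM, the pooled SD of log2 CPM within the shNC groups had a median of 0.0702 and was 0.29 for ALPP, larger than in 99.9% of them. The 1 gene above it, named after its value was seen, was the pseudogene GPX1P1. In the shARID1A groups the ALPP value was 0.0855, larger than in 74.7% of these genes. The coefficient of variation over the 6 shNC libraries was 17.6% for ALPP, 5.62% for ALPI and 5.64% for ALPL. The antisense gene had 15.1%, so among these 4 genes the wide spread belonged to the 2 that share the ALPP locus.

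ALPP passed the test in none of the 8 treatment contrasts. In shNC cells E2 against DMSO gave a log2 difference of 0.17 (SE 0.12), a change of 12.5% with a 95% interval of -5.12% to 33.3%. In shARID1A cells the log2 difference was -0.07 (SE 0.11), with an interval of -18.1% to 11.0%. Averaged over both arms the interval ran from -7.61% to 16.1% (edgeR, unadjusted p = 0.536). A miss of the threshold does not show that E2 had no effect, since the mean interval includes a rise of up to 16.1%.

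The call rate of the whole table was low for E2. It called 0.00588% of genes in shNC, 0.0235% in shARID1A and 0.00588% for the mean of both arms. Beside this, ESR1 was at most 1.08 CPM in every library, as given above. Its part in the result was not tested.

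Adding fulvestrant to E2 did not lower ALPP past the threshold in either arm. The log2 difference was 0.03 (SE 0.12) in shNC, with an interval of -13.6% to 20.7%. It was 0.18 (SE 0.11) in shARID1A, with an interval of -2.46% to 32.0% (edgeR unadjusted p = 0.0984, adjusted p = 0.587). In shARID1A both libraries with E2 plus fulvestrant, at 129.0 and 117.0 CPM, were above both with E2, at 104.0 and 112.5 CPM. Averaged over the arms the difference was 0.11, with an interval of -3.81% to 20.5%. The share of all genes called was 0.00588% in each arm and 0.0646% for the mean. The last is 11 genes, against 294 with DESeq2, 0 without replicate 2 of the shNC group with both agents and 222 without replicate 2 of the shNC E2 group. Against DMSO, E2 plus fulvestrant gave 0.20 in shNC and 0.11 in shARID1A on the log2 scale, where 0.0118% and 0% of genes were called. These comparisons share the DMSO or the E2 libraries and are not independent of each other.

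The arms were not shown to differ in their response. The E2 effect on ALPP was lower in shARID1A by a log2 difference of -0.24 (SE 0.16, edgeR adjusted p = 0.851), where 0.0294% of genes were called. The effect of adding fulvestrant differed by 0.15 (SE 0.16, edgeR unadjusted p = 0.348), where 0.0118% were called. Removing 1 shNC library turned the direction of several of these small differences: E2 against DMSO in shNC was -0.05 without replicate 1 and 0.37 without replicate 2 of the E2 group. The arm difference in the E2 effect stayed below 0, from -0.44 without replicate 2 to -0.01 without replicate 1 of the same group.

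**Figure D3:**
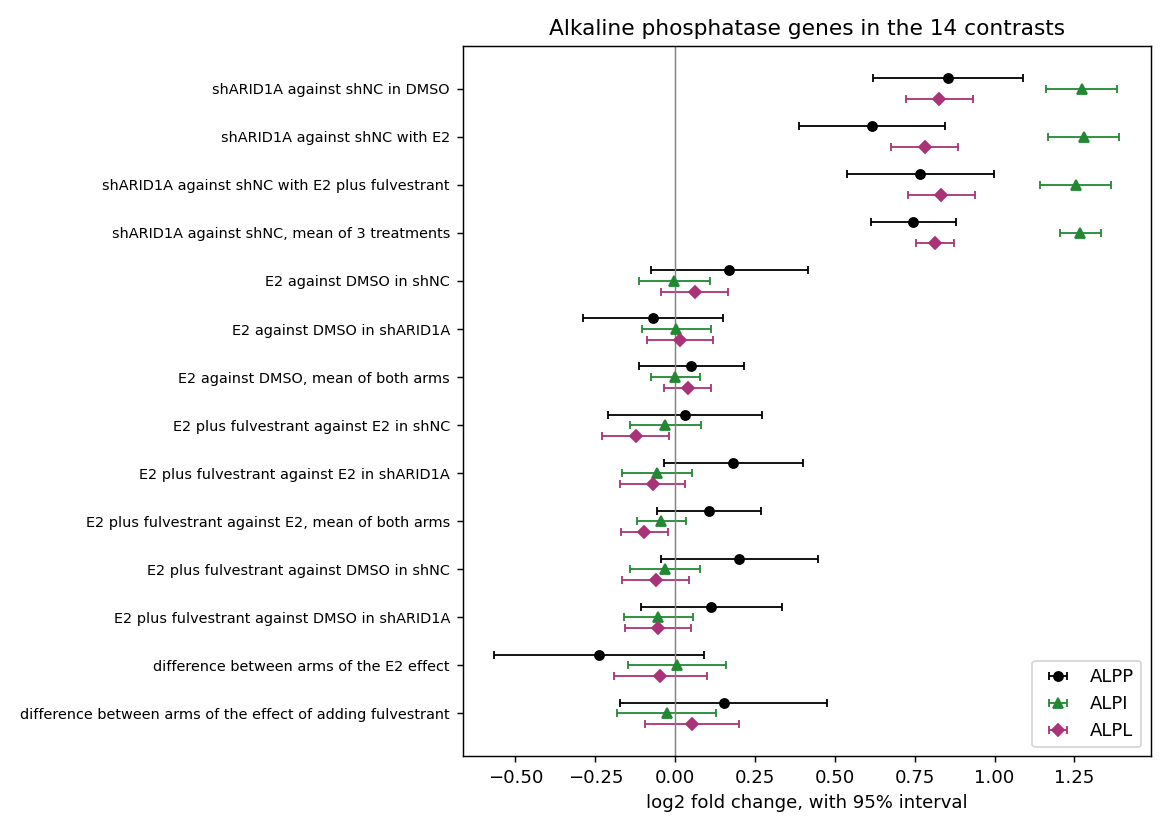
Log2 fold change (horizontal axis) of ALPP (black circles), ALPI (green triangles) and ALPL (purple diamonds) in the 14 contrasts, with 95% intervals from the edgeR fit. All 3 genes lie to the right of 0 in the 4 knockdown contrasts, and every ALPP interval in the other contrasts crosses 0. The ALPL intervals for adding fulvestrant to E2 in shNC and on average lie below 0.

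ALPP was the lowest of the 3 per exon length. In shNC its level was 36.1 ± 6.33 FPKM (SD, n = 6), against 559 FPKM for ALPI and 327 FPKM for ALPL. In shARID1A it was 60.5 ± 4.51 FPKM, against 1348 and 575 FPKM. ALPI ranked between 23 and 88 by count within a library, so the intestinal form was among the most counted genes of these endometrial cancer cells.

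Both relatives also rose with ARID1A knockdown. ALPI measured 975 to 1111 CPM in shNC, with a median of 1058, and 2405 to 2637 CPM in shARID1A, with a median of 2548. Its mean log2 fold change was 1.27 (SE 0.03, edgeR adjusted p = 1.36e-24), and the 3 treatments gave 1.27 (DMSO), 1.28 (E2) and 1.25 (both agents). ALPL measured 696 to 814 CPM in shNC and 1248 to 1356 CPM in shARID1A, with medians of 750 and 1330. Its mean log2 fold change was 0.81 (SE 0.03, edgeR adjusted p = 2.40e-20), with 0.83, 0.78 and 0.83 by treatment. The levels of the arms did not overlap for either gene, and neither passed the test in a treatment contrast. Adding fulvestrant to E2 gave ALPL a mean log2 difference of -0.10, with an interval of -11.1% to -1.59%. Its unadjusted p was 0.0117 and its adjusted p 0.212 (edgeR), where 14.6% of all genes had an unadjusted p under 0.05. In shNC the ALPL difference was -0.12, with an interval of -14.6% to -1.23%.

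ALPP rose less than ALPI. ALPP counts were 5.62% to 7.76% of ALPI counts in the shNC libraries and 4.15% to 5.08% in the shARID1A libraries, without overlap. The log2 ratio differed by -0.51 between the arms (exact permutation within treatments, two-sided p = 0.00926, the smallest possible; 0.0278 adjusted over 3 ratios). Against ALPL the ratio differed by -0.06 (exact permutation p = 0.537), and the ranges, 7.93% to 11.4% and 7.76% to 9.77%, overlapped. So the rise of ALPP was told apart from that of ALPI and not from that of ALPL.

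**Figure D4:**
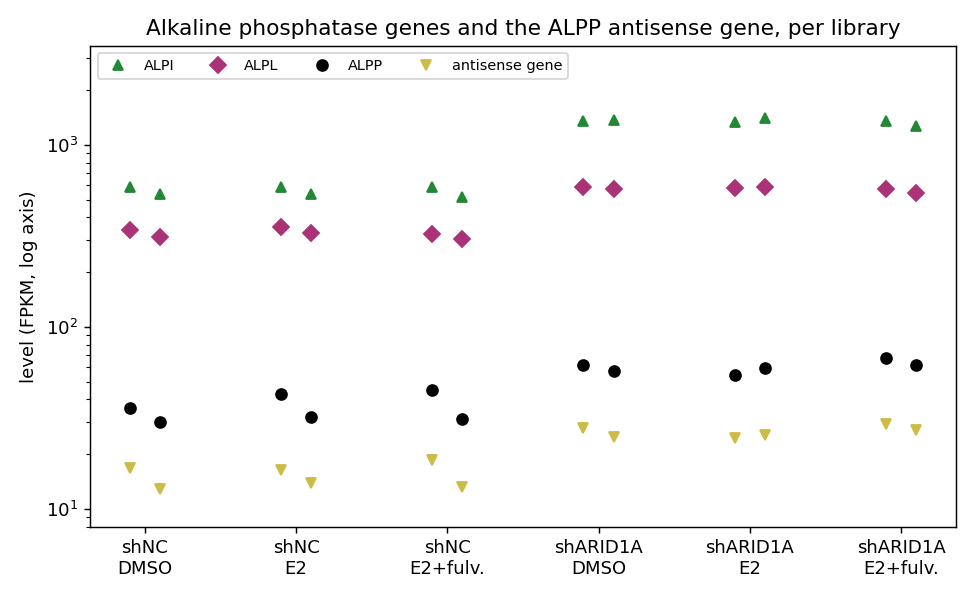
FPKM per library on a log axis for ALPI, ALPL, ALPP and the ALPP antisense gene, by group, with replicates 1 and 2 side by side. All 4 are higher in shARID1A, and ALPP lies below ALPL and ALPI in every library.

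ENSG00000224516.1 measured 10.4 ± 1.57 CPM in shNC and 18.1 ± 1.28 CPM in shARID1A (SD, n = 6 each). It rose by 0.80 on the log2 scale (SE 0.08, edgeR adjusted p = 3.31e-09). ALPP had 5.99 to 7.30 counts per antisense count over the 12 libraries. The log2 ratio differed between the arms by -0.05 (exact permutation p = 0.241, 0.361 adjusted over 3 ratios). Of the 680 antisense bases, 555 (81.6%) lie on exons of the full ALPP transcript, so without strand these counts can come from either gene. Among those 555 bases, 303 were not counted as ALPP. How reads on bases counted for both genes were assigned is not given in the sources used here. With the counts of both genes summed, the mean knockdown difference was 0.75.

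**Figure D5:**
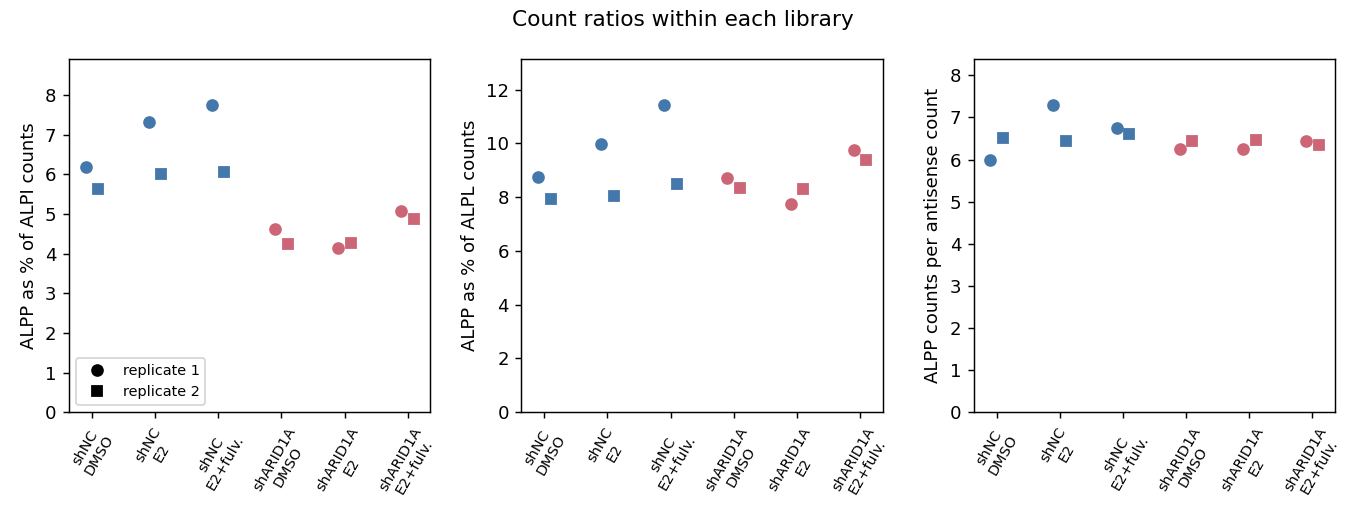
Ratio of ALPP counts to those of ALPI (percent), ALPL (percent) and the antisense gene (counts per count) in each library; each axis starts at 0, circles and squares are replicates 1 and 2, blue is shNC and red shARID1A. Only the ratio to ALPI separates the arms, at 5.62% to 7.76% against 4.15% to 5.08%.

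Within 300 kb of ALPP the files place 14 other genes, of which 7 had enough counts to test. In the knockdown contrast averaged over treatments 4 were called higher and 0 lower (edgeR; the background of higher calls is the 20.3% given above). DESeq2 gave the same counts, and 1 gene was lower at an unadjusted p under 0.05 in edgeR. Besides ALPI and the antisense gene these were PRSS56, a serine protease gene 137.9 kb away, and EIF4E2, which encodes a cap-binding translation repressor, 168.1 kb away. PRSS56 went from 0.701 to 2.14 CPM (log2 1.61), and EIF4E2 from 87.5 to 104.3 CPM (log2 0.26). ECEL1, an endopeptidase-like gene between ALPI and PRSS56, had -0.67 (edgeR adjusted p = 0.0702). AC068134.10 had 0.27 and ENSG00000237126.4 had 0.34, neither past the threshold. ECEL1P3, ECEL1P2, AC068134.5, ENSG00000237087.1, DIS3L2P1, CHRND and CHRNG had too few counts to test.

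Other proteins held by a GPI anchor also differed between the arms. Of 18 tested, 13 rose and 4 fell, against 20.3% and 22.8% of all genes, with a median log2 fold change of 0.35 against -0.02 over all genes. MSLN, the cell-surface antigen mesothelin, rose by 1.08, EFNA1, an ephrin ligand, by 0.95, LYPD3 by 0.65 and CD59, the inhibitor of the complement membrane attack complex, by 0.58. Of 26 tested genes of GPI-anchor synthesis and transfer, 13 rose and 4 fell, against the same shares of all genes, with a median of 0.10. DPM2, a subunit of the dolichol-phosphate mannose synthase, rose by 0.43, PGAP2, which remodels the anchor lipid, by 0.40, PIGO by 0.31 and GPAA1, a subunit of the transamidase that attaches the anchor, by 0.29. Fewer of these 26 passed in either direction without replicate 2 of all shNC groups, which leaves those groups without replicates. The share of all genes called in that fit is not given, so the list and the background cannot be compared there.

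Of 9 tested zinc transporters, 2 rose and 4 fell, against 20.3% and 22.8% of all genes. The median was -0.13, and only the 2 that rose had a log2 fold change above 0. SLC39A1 had 0.32 and SLC39A7 had 0.24, whereas SLC39A14 had -0.41 and SLC39A10 had -0.63, and these 4 passed the test.

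Of 23 tested trophoblast genes, 9 rose and 9 fell, against 20.3% and 22.8% of all genes, with a median of -0.00 against -0.02 over all genes. PAPPA2, a pregnancy-associated protease gene, rose by 0.99 and TFAP2A, a transcription factor of trophoblast and ectoderm, by 0.64, whereas PAPPA had -1.22 and TFPI2 had -1.20. Fewer passed as lower without replicate 1 of all shNC groups, which leaves those groups without replicates. The share of all genes called in that fit is not given, so this list and the background cannot be compared there either. Of 38 trophoblast genes in the files, 7 were at 0 in every library: CSH1, CSH2, HSD3B1, VGLL1, LGALS13, LGALS14 and LGALS16.

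Of 34 tested estrogen-response genes, 0 passed the edgeR test for E2 or for adding fulvestrant, averaged over the arms, where 0.00588% and 0.0646% of all genes passed. At an unadjusted p under 0.05 there were 2 of the 34 for E2, against 4.09% of all genes, and 6 for fulvestrant, against 14.6%. Their median log2 differences were 0.03 and -0.02. The smallest p for fulvestrant was that of MUC1, a membrane mucin, at -0.22 (edgeR adjusted p = 0.0649), which passed with DESeq2 (adjusted p = 0.00239). DESeq2 called 0 of the list for E2 and MUC1 alone for fulvestrant. ABCA3, a lipid transporter gene, had 0.41 with E2 and -0.46 on adding fulvestrant, neither past the threshold. Both values use the same E2 libraries, and without replicate 2 of the shARID1A E2 group they were 0.24 and -0.29. The other members with the smallest p for E2 were THBS1 (-0.19), IL17RB (-0.13) and MUC1 (0.08). For fulvestrant they were IER3 (-0.23) and IGFBP4 (-0.12), besides MUC1. None of these passed the edgeR test. In the knockdown contrast 8 of the 34 rose and 12 fell, against 20.3% and 22.8% of all genes, with a median of -0.09. IGFBP4 rose by 0.71, and CA12, THBS1 and IER3 had -1.25, -1.05 and -0.97, all past the threshold.

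Several marker sums moved with the arms and hence with ALPP. The summed level of the 10 epithelial markers was 993 to 1098 CPM in shNC and 644 to 700 CPM in shARID1A, and 6 of 7 tested fell, against 22.8% of all genes, among them KRT8 (-0.75) and KRT18 (-0.54). The summed trophoblast level was 951 to 1025 against 1037 to 1102 CPM. Its members went both ways. From shNC to shARID1A, mean SLC1A5 went from 404 to 371 CPM and SDC1 from 220 to 201 CPM. TFAP2A went from 123 to 192 CPM and PAPPA2 from 22.9 to 45.3 CPM. The immune sum was 1.39 to 2.18 against 2.23 to 3.70 CPM, with CD3E, CD4, MS4A1 and TYROBP at 0, and the endothelial sum was at most 0.282 CPM. The stromal sum was 590 to 642 against 569 to 575 CPM, with THY1 at 0. Mitochondrially encoded genes took 4.76% to 5.12% of counts in shNC and 5.50% to 5.72% in shARID1A. The part of these differences in the ALPP result was not tested.

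Over the 12 libraries, which fall into the 2 arms, the Pearson correlation of log2(CPM + 0.5) with ALPP was computed for 11977 genes as a description. Only genes with a symbol entered, and among them the highest were ATP6V0A1, a subunit of the vacuolar proton pump (0.976), TRIP10 (0.970), DAGLA, a diacylglycerol lipase gene (0.968), TBL2 (0.965) and SLC35A2, the Golgi UDP-galactose transporter (0.965). The antisense gene, which has no symbol and shares the ALPP locus, had 0.988 and is not ranked. ALPI had 0.932 and ALPL 0.928, at ranks 120 and 153. With the mean of each arm taken off, the antisense gene had 0.935, and the highest among the genes with a symbol were ZNF707 (0.899), the pseudogene LDHAP5 (0.896), the taurine transporter gene SLC6A6 (0.894), ATP6V0A1 (0.888) and NR4A2, an orphan nuclear receptor gene (0.867). ATP6V0A1 was in both sets. ALPI then had 0.674, at rank 137, and ALPL 0.469, at rank 826. ALPP varied most among the shNC libraries, so these weigh most in the within-arm values.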

How the data were processed

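ALPP and the gene lists were chosen with earlier results of these data known. The deposited values are read counts per gene, made by the authors with featureCounts 2.0.0 of Subread, per the file headers and the submitters' processing notes, against hg19. The notes also name cutadapt, Trim Galore and FastQC. The aligner and the handling of strand and shared reads are not given in the sources used here. The 12 libraries were grouped by their titles into 6 groups of 2.

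Genes with low counts were removed with edgeR's filterByExpr, leaving 17020. A quasi-likelihood model (edgeR 4.0.16, R 4.3.3) with 6 group means and TMM factors gave 14 contrasts, with Benjamini-Hochberg adjustment over all genes and a threshold of 0.05. SEs are the log2 fold change divided by the square root of F. Intervals are at 95%. Ratios were tested by exact permutation of arm labels within treatments (scipy 1.17.1). FPKM were computed from the counts, the TMM-scaled totals and the exon lengths in the files. The gene model was compared with GENCODE 29 by distances along the gene, without converting coordinates. Promoters and ALPG likeness come from RefSeq (GRCh38.p14) and GENCODE sequences.

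Named genes are ALPP, its family, the neighbours within 300 kb, ARID1A and ESR1, the 4 members of each list with the smallest p, and the 5 most correlated genes. The fit was tested on simulated data. Alternatives were DESeq2 1.42.0, its size factors, no filter, a replicate block, only the groups compared, summed gene copies, other pseudocounts and leaving out each library, where the library left alone in a group is assumed to vary like the others. Summing with the antisense gene, leaving out 1 replicate number in all shNC groups and another form of the ratio were added after seeing the data.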

Additional observations from a re-analysis of the deposited data

How the results depend on the processing

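The 4 ALPP knockdown differences kept direction and call under every alternative run. The mean over treatments ran from 0.56, without replicate 2 of all shNC groups, to 0.97, without replicate 1, and was 1.24 with ALPI reads summed in. Leaving out 1 library gave 0.73 to 1.00 in DMSO, 0.41 to 0.84 with E2, 0.53 to 1.08 with E2 plus fulvestrant and 0.66 to 0.84 on average. The replicate numbers were not taken as pairing the libraries, since no label says so and r of replicate differences was over 0.1 in only 7 of 15 pairs of groups (-0.228 to 0.283). Among these 7 were the 3 pairs of shNC groups, at 0.283, 0.176 and 0.168. ALPP itself was higher in replicate 1 in 5 of the 6 groups. With the replicate as a block ALPP had 0.86, 0.63, 0.78 and 0.75 in the knockdown contrasts, and the block changed no ALPP call. In shNC the block moved the edgeR unadjusted p for E2 against DMSO from 0.168 to 0.0885. For E2 plus fulvestrant against DMSO it moved from 0.107 to 0.0521. No ALPP treatment difference passed under any alternative, but several changed sign. With ALPI summed in, E2 in shARID1A was 0.00083, adding fulvestrant to E2 gave -0.027 in shNC, -0.046 in shARID1A and -0.036 on average, E2 plus fulvestrant against DMSO gave -0.018 and -0.045, and the arm difference for fulvestrant was -0.019; ALPI supplied most of those reads. Without replicate 1 of all shNC groups, adding fulvestrant gave -0.052 for ALPP in shNC, and E2 gave -0.0045 for ALPI on average; the cause was not tested. Leaving out 1 library gave ALPP ranges of -0.053 to 0.37 (E2, shNC), -0.061 to 0.15 (E2, mean), -0.28 to 0.27 (adding fulvestrant, shNC), -0.043 to 0.23 (mean), -0.10 to 0.44 (E2 plus fulvestrant against DMSO, shNC) and -0.072 to 0.47 (arm difference for fulvestrant). For ALPI it gave -0.035 to 0.037 (E2, mean) and -0.092 to 0.0015 (fulvestrant, mean), and for ENSG00000237126.4 -0.058 to 0.56. List counts moved without replicate 1 of all shNC groups (trophoblast, 5 lower) or without replicate 2 (GPI synthesis, 7 higher and 2 lower), and leaving out 1 library gave 2 to 4 lower GPI synthesis genes. SLC6A6 lost its knockdown call with DESeq2, with its size factors and in 8 of 12 fits without 1 library (-0.15 to -0.07, edgeR adjusted p up to 0.200). LDHAP5 lost it in 2 of these 12 (-1.73 to -0.76), and both lost it without replicate 1 of all shNC groups. MUC1 passed for fulvestrant with DESeq2, without the filter and with the block. Genes called in the fulvestrant contrast averaged over arms numbered 11, against 294 with DESeq2, 256 without the filter, 40 with the block and 0 to 222 without 1 library. In shARID1A alone there was 1, against 18 with DESeq2, 41 without the filter and 1 to 27 without 1 library. For the E2 contrast averaged over arms there was 1, against 8 without the filter and 0 to 4 without 1 library. With no library left out of a group, knockdown calls ran from 3228 to 3591 in DMSO, against 3268. They ran from 4385 to 4734 with E2, against 4633, and from 4025 to 4193 with E2 plus fulvestrant, against 4120. Averaged over treatments, the background of the lists, they ran from 7059 to 7398, against 7339. Some fits that left out libraries had fewer calls in each of these contrasts. The lower list counts in fits without libraries therefore cannot be told apart from fewer calls over all genes.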
